A study of Mus musculus with 11 samples.

Results

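Transcripts of 5 potassium channel genes, *Kcnj2*, *Kcnj4*, *Kcna4*, *Kcns1* and *Kcnv1*, were followed across 11 libraries of ribosome-associated RNA from the mouse hippocampus. They are 5 of the 63244 transcripts deposited and of the 29599 tested. They were chosen by their fold change and FDR in an earlier test of the same contrast in the same libraries, which had called them lower after sleep deprivation. The difference between the groups is therefore given as a description, and it supports nothing on its own. Each transcript was found in the count table by its mean abundance alone, and each symbol matched exactly 1 transcript.

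All mice were CaMKIIα-Cre:RiboTag males aged 2-3 months, in which Cre driven by CaMKIIα switches on an HA-tagged copy of the ribosomal protein Rpl22. Immunoprecipitation of the tag recovers ribosomes, and the RNA on them, from CaMKIIα-expressing cells, which in the hippocampus are mostly excitatory neurons. The sleep deprived group (SD, n = 6 libraries) was kept awake by gentle handling for 5 h from lights-on. The non-sleep deprived group (NSD, n = 5 libraries) carried the same alleles and was killed at the same time of day, and hippocampi of 2 mice were pooled in each library. The labels do not say whether libraries of a group came from separate cohorts, so p-values measure only the spread between these libraries. A lower value can reflect fewer tagged cells of a type or less of the RNA on ribosomes per cell, and these cannot be told apart in bulk RNA.

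Potassium channels set how easily a neuron fires. Inward rectifiers of the Kir family pass current near the resting potential and hold the membrane there, voltage-gated channels of the Shaker family open on depolarisation and shape the spike, and modulatory subunits form no working channel alone but join Kv2 subunits and change their gating. *Kcnj2* encodes Kir2.1 and *Kcnj4* encodes Kir2.3, both strong inward rectifiers of principal neurons. *Kcna4* encodes Kv1.4, a fast-inactivating A-type channel found in axons. *Kcns1* encodes Kv9.1 and *Kcnv1* encodes Kv8.1, both modulatory subunits.

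In the GENCODE vM21 annotation of GRCm38 (mm10), *Kcnj2* (uc007mdw.2) lies on the forward strand at chr11:111066164-111076821. *Kcnj4* (uc007wtn.2) lies on the reverse strand at chr15:79483714-79505241. *Kcna4* (uc008llu.2) lies on the forward strand at chr2:107290639-107298502. *Kcns1* (uc008ntv.1) lies on the reverse strand at chr2:164163619-164171113. *Kcnv1* (uc007vql.2) lies on the reverse strand at chr15:45106284-45114920. No other annotated gene overlaps any of these spans, and the nearest named transcripts on both sides of each in the count table lie on the same chromosome and on either side of the gene (*Arsg* and *2610035D17Rik* for *Kcnj2*, *Baiap2l2* and *St13* for *Kcnj4*, *Immp1l* and *Bdnf* for *Kcna4*, *Rims4* and *Pigt* for *Kcns1*, *Sybu* and *Ext1* for *Kcnv1*). The whole coding sequence of *Kcnj2*, *Kcnj4* and *Kcna4* sits in 1 exon, as it does in 16.3% of 21866 protein-coding genes. The coding sequence of *Kcns1* spans 2 exons and that of *Kcnv1* spans 3. The stretch after the stop codon makes up 69.0% of the 5444 bases of the *Kcnj2* transcript and 61.4% of the 4389 bases of the *Kcnv1* transcript. It makes up 33.9% of *Kcnj4*, 33.8% of *Kcna4* and 34.4% of *Kcns1*, which are 2152, 4792 and 2712 bases long.

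Promoters were at hand for 4 of the 5 genes, *Kcnv1* being the exception. They were taken from RefSeq on GRCm38.p6 as 250 bases before the transcription start and 50 after it. Their GC content was 66.7% for *Kcnj2*, 76% for *Kcnj4*, 67.7% for *Kcna4* and 64% for *Kcns1*, all above the median of 52.7% over 32851 promoters. On both strands they were searched for the E-box CACGTG that clock factors can bind, the short CREB site TGACG and the AP-1 motif TGANTCA, which are motifs of factors that respond to time of day or activity. The E-box was found in *Kcnj2*, its first base at position -84 from the start, and in 7.15% of all promoters. The short CREB site was found in *Kcnj4*, its first base at position -167 from the start, and in 20.8% of all promoters. The AP-1 motif was found in none of the 4 and in 7.81% of all. The promoters of the 2 inward rectifiers are shown because each holds a match, given in capitals, 5′ to 3′ on the strand of the gene (chr11:111065914-111066213 forward for *Kcnj2*, chr15:79505192-79505491 reverse for *Kcnj4*). A match describes the letters only, and binding was not measured.
*Kcnj2*: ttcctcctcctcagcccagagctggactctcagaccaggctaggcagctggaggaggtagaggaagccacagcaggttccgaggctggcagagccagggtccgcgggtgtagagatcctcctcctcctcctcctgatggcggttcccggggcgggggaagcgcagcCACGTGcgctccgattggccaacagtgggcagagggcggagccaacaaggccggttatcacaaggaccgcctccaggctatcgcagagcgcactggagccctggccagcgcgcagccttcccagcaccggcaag
*Kcnj4*: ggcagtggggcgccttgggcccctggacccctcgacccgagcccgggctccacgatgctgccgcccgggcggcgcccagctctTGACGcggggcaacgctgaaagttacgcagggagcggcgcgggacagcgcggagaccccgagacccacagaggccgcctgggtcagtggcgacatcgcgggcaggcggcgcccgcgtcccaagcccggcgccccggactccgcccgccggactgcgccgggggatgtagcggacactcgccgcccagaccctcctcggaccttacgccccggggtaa

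Between 22074914 and 25984063 reads were counted on transcripts in the NSD libraries and between 24139337 and 29549339 in the SD libraries. Of the reads, 10.9% to 27.6% in NSD and 9.97% to 21.1% in SD fell outside annotated transcripts, and 37.2% to 52% overlapped several transcripts and were not counted on any. NSD replicate 2 stood apart, with 27.6% outside annotated transcripts and 12.3% of reads not aligned to a single place against 5.88% to 6.23% in the other libraries. The 5 channel transcripts had 782 to 5646 counts in each library, and at the mean count of each transcript the counting error of 1 library was 1.44% to 3.32%. Abundance is given as CPM, counts relative to the size of the library, with upper-quartile factors, which set the upper quartile of the tested transcripts equal across libraries.

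*Kcnj2* had 59.3, 70.1, 49.9, 66.0 and 73.2 CPM in NSD replicates 2, 3, 4, 5 and B, and from 43.0 to 53.4 CPM in SD with a median of 47.4. Only NSD replicate 4 came down into the SD range, and 5 of the 6 SD libraries lay below every NSD library. The means were 63.7 ± 9.3 CPM (standard deviation, n = 5) in NSD and 48.0 ± 3.47 CPM (n = 6) in SD, 24.7% lower in SD. Its log2 fold change of -0.41 (standard error 0.0979) was the most negative of the 5.

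*Kcnj4*, the other inward rectifier, had 99.2, 106, 92.6, 116 and 100 CPM in the same NSD libraries, and from 70.9 to 96.0 CPM in SD with a median of 91.1. Here too NSD replicate 4 was the lowest NSD library and the only one within the SD range, and SD replicates 1 and 3 were clearly the lowest of all, at 70.9 and 75.6 CPM. The means were 103 ± 8.9 CPM in NSD and 86.5 ± 10.6 CPM in SD, 15.9% lower in SD, with a log2 fold change of -0.25 (standard error 0.0968).

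*Kcna4*, the A-type channel, had 194, 233, 178, 237 and 230 CPM in the NSD libraries, and from 138 to 197 CPM in SD with a median of 169. The groups overlapped through NSD replicates 2 and 4, while NSD replicates 3, 5 and B lay above every SD library. The means were 214 ± 26.5 CPM in NSD and 169 ± 22.2 CPM in SD, 20.9% lower in SD, with a log2 fold change of -0.34 (standard error 0.107).

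Of the modulatory subunits, *Kcns1* had 40.6, 41.5, 33.8, 43.3 and 35.5 CPM in the NSD libraries, and from 29.4 to 35.3 CPM in SD with a median of 33.3. NSD replicate 4 lay within the SD range, replicate B lay just above its upper end, and the other NSD libraries stood clear of it. The means were 38.9 ± 4.11 CPM in NSD and 33.1 ± 2.07 CPM in SD, 14.9% lower in SD, with a log2 fold change of -0.23 (standard error 0.0874).

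*Kcnv1* had 112, 135, 111, 159 and 124 CPM in the NSD libraries, and from 89.9 to 115 CPM in SD with a median of 108. NSD replicates 2 and 4 overlapped the highest SD library and NSD replicate 5 was the highest library of all. The means were 128 ± 19.8 CPM in NSD and 105 ± 9.1 CPM in SD, 18.1% lower in SD, with a log2 fold change of -0.29 (standard error 0.101).

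Across the 5 transcripts the size of the difference thus ran from 14.9% to 24.7%, and in each of them between 4 and 5 of the 6 SD libraries lay below the lowest NSD library. With upper-quartile factors 0 of the 5 had groups that did not overlap, beside 0.361% of all tested transcripts with every SD library below every NSD library. With TMM factors (trimmed mean of M-values), which align the bulk of the transcripts, 3 of the 5 had groups that did not overlap, *Kcnj4*, *Kcns1* and *Kcnv1*, beside 0.564% of all. *Kcnj2* and *Kcna4* then overlapped through NSD replicate 4 alone, which had 52.3 CPM of *Kcnj2* against 54.0 in SD replicate 3, and 187 CPM of *Kcna4* against 189 in SD replicate 4. In *Kcns1* the TMM-scaled SD libraries drew together to 33 ± 0.771 CPM (n = 6), while the NSD libraries stayed at 39.1 ± 3.45 CPM (n = 5). Without NSD replicate 4 the log2 fold changes were -0.49, -0.29, -0.41, -0.29 and -0.34 for *Kcnj2*, *Kcnj4*, *Kcna4*, *Kcns1* and *Kcnv1*, and without NSD replicate 2 they were -0.44, -0.27, -0.38, -0.23 and -0.34. Other libraries left out made them smaller. Without NSD replicate 5 they were -0.40, -0.21, -0.31, -0.20 and -0.21. *Kcnj2* was at -0.36 without NSD replicate B, and *Kcna4* at -0.29 without SD replicate 1.

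**Figure D1:**
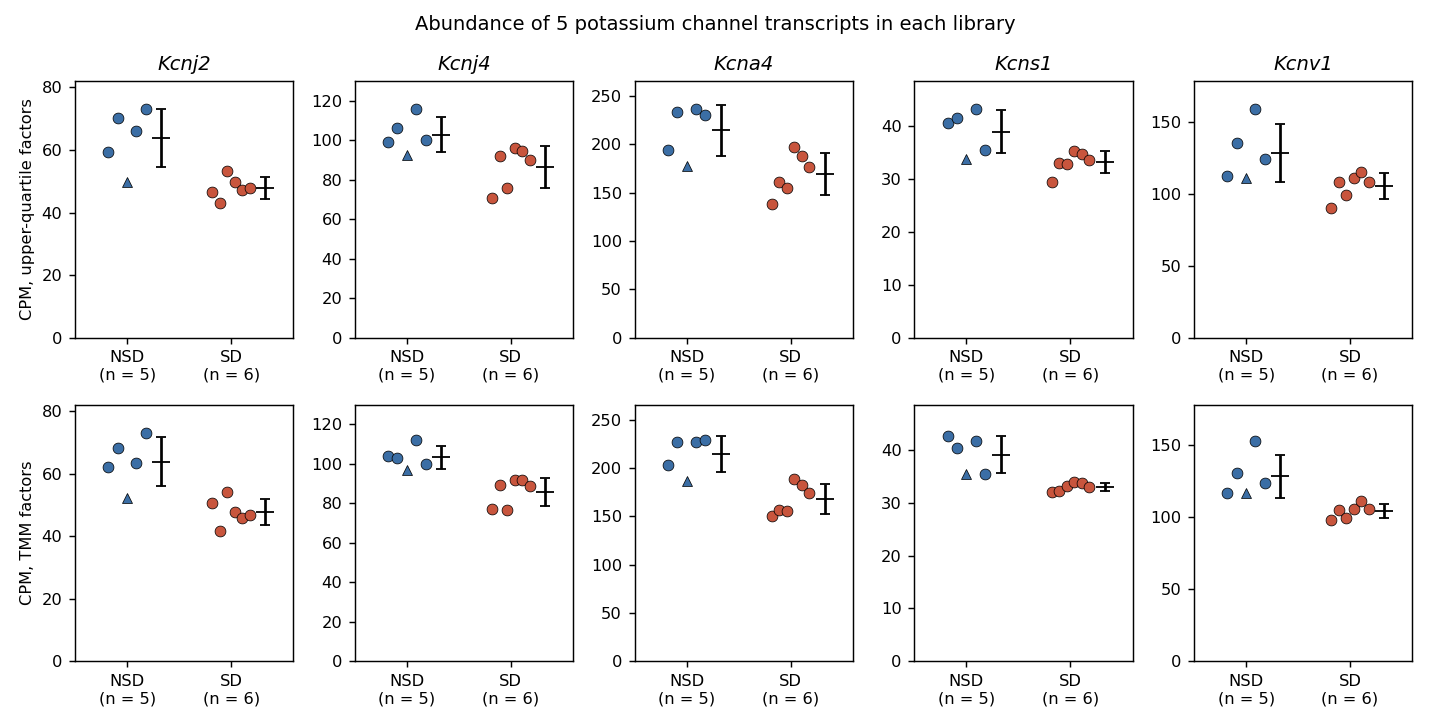
Abundance of the 5 channel transcripts in every library, as CPM with upper-quartile factors (top) and with TMM factors (bottom); each point is 1 library (blue, 5 NSD; red, 6 SD), the triangle is NSD replicate 4, and bars give the mean ± standard deviation. NSD replicate 4 lies at the lower end of the NSD libraries in each panel, and with TMM factors the groups of *Kcnj4*, *Kcns1* and *Kcnv1* no longer overlap.

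In the fit across all 29599 transcripts, edgeR's quasi-likelihood test called 0 of the 5 at a false discovery rate (FDR) of 0.05, beside 0.00676% of all transcripts called lower. The unadjusted p was below 0.05 for 5 of the 5, and for 1317 of the 29599 transcripts tested, of which 564 were lower in SD. The FDR from edgeR was 0.22 for *Kcnj2*, 0.954 for *Kcnj4*, 0.647 for *Kcna4*, 0.908 for *Kcns1* and 0.8 for *Kcnv1*. The median log2 fold change over all tested transcripts was 0.009. Nothing is read from the members' counts here or in the settings that follow, because this contrast chose them.

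The number of members called differed between settings of the fit, while in these settings the log2 fold changes moved by less than 1 standard error. With TMM factors edgeR called 0 of the 5 (FDR from 0.0514 to 0.181, unadjusted p from 0.000111 to 0.00107), beside 0.0372% of all transcripts called lower. DESeq2 called 2 of the 5, *Kcnj2* (log2 fold change -0.41, FDR 0.00641) and *Kcna4* (-0.35, FDR 0.0389), beside 0.275% of the 15252 transcripts with an adjusted p called lower. After edgeR's filterByExpr, which drops weakly counted transcripts, 5 of the 5 were called, beside 0.307% of 19228, with FDR from 0.00793 for *Kcnj4* to 0.0397 for *Kcns1*. When 10 counts or more were required of every library, 5 of the 5 passed, beside 0.704% of 15757. To separate the scaling from the number of transcripts tested, the upper-quartile factors of the filterByExpr transcripts were put into the fit of all 29599, and 4 of the 5 were called, all but *Kcns1* (FDR 0.0616), beside 0.139% of all. When the original p-values were instead adjusted over the filterByExpr transcripts alone, 0 of the 5 were called, with edgeR FDR from 0.149 to 0.763, beside 0.0104% of the 19228 called lower. The changed factors left the log2 fold changes of *Kcnj2*, *Kcnj4*, *Kcna4*, *Kcns1* and *Kcnv1* at -0.43, -0.29, -0.37, -0.27 and -0.32, and the standard error of *Kcnj4* was 0.0456 in place of 0.0968. With these factors 4 of the 5, all but *Kcnj2*, had every SD library below every NSD library, beside 0.882% of all transcripts. *Kcnv1* then ranged from 120 to 152 CPM in NSD and from 100 to 109 CPM in SD. The upper-quartile factors themselves ran from 0.892 to 1.19 across libraries, and from 0.965 to 1.05 when computed on the filterByExpr transcripts.

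**Figure D2:**
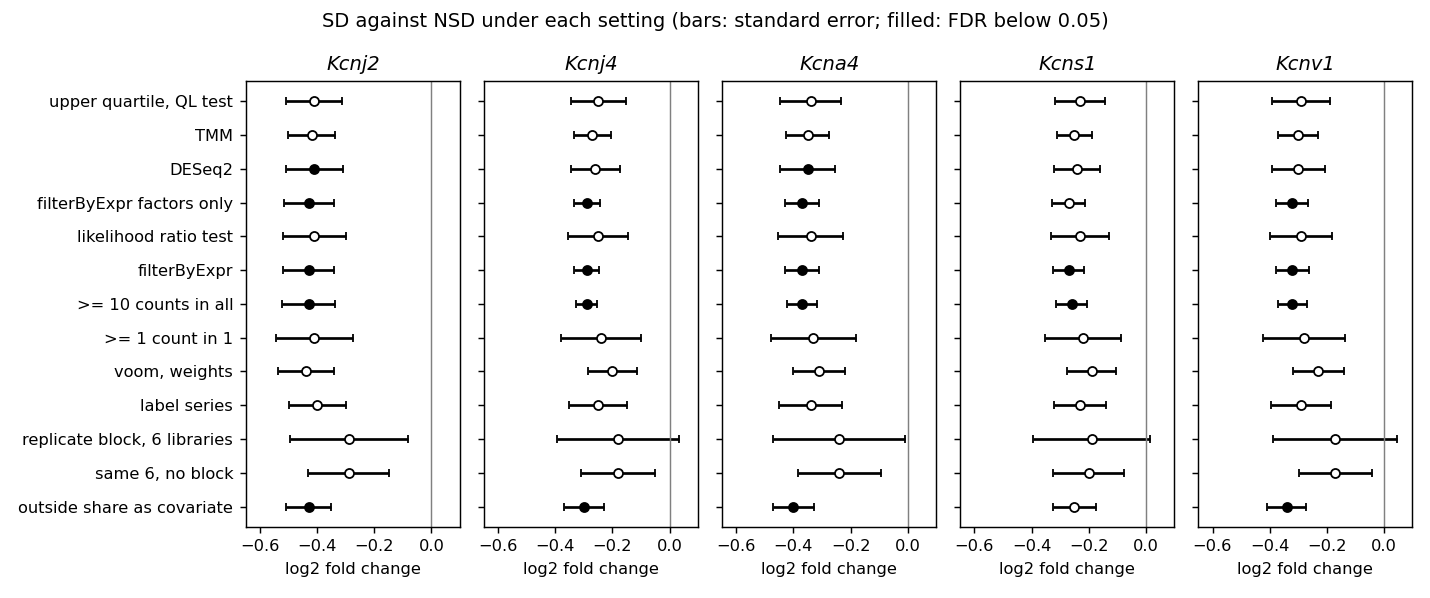
Log2 fold change of SD against NSD for each channel transcript under 13 settings of the fit, with bars of 1 standard error; filled points have an FDR below 0.05. The estimates are negative in every setting drawn, and the settings differ mainly in the length of the bars and in which points are filled.

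Levels of different genes were compared after division by the length of the annotated transcript, as CPM per kilobase. In NSD the order was *Kcnj4* at 47.9, *Kcna4* at 44.7, *Kcnv1* at 29.2, *Kcns1* at 14.3 and *Kcnj2* at 11.7 CPM per kilobase. *Kcnj4* (43 to 53.9 over the libraries) and *Kcna4* (37.1 to 49.5) did not differ beyond their spread, nor did *Kcns1* (12.5 to 16) and *Kcnj2* (9.17 to 13.4). *Kcnv1* lay between these pairs at 25.3 to 36.2, apart from both. In SD the order was the same, at 40.2, 35.3, 23.9, 12.2 and 8.82 CPM per kilobase, and the ranges of *Kcns1* (10.8 to 13) and *Kcnj2* (7.9 to 9.81) were then apart. The lengths come from GENCODE while the counting used UCSC transcripts and left out reads shared by several, so this order is approximate.

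Variation between libraries of the same group was not used to pick the direction of the members, although the test that chose them favours a small spread. After the group means were removed from log2 CPM, *Kcnj4*, *Kcna4*, *Kcns1* and *Kcnv1* went up and down together across the 11 libraries under upper-quartile factors, and *Kcnj2* did not show this. All 6 pairs among the 4 passed an exact two-sided permutation test within groups after Benjamini-Hochberg adjustment over the 10 pairs. The pair of *Kcnj4* and *Kcnv1* had r = 0.87 and rho = 0.90 (n = 11; exact permutation p = 5.79e-05, adjusted p = 0.000579, rho exact p = 9.26e-05), and r = 0.94 without the 2 libraries farthest from the median. The pair of *Kcnj4* and *Kcna4* had r = 0.86 and rho = 0.86 (exact permutation p = 0.00037, adjusted p = 0.00123, rho exact p = 0.00197), and r = 0.78 without the 2 farthest. The weakest of the 6, *Kcna4* and *Kcns1*, had r = 0.71 and rho = 0.77 (exact permutation p = 0.0224, adjusted p = 0.0373, rho exact p = 0.00642), and r = 0.52 without the 2 farthest. The 4 pairs with *Kcnj2* had r from 0.16 with *Kcnj4* to 0.57 with *Kcna4* and adjusted exact p from 0.102 to 0.598. Whether the pairs with *Kcnj2* differ from the others was not tested.

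The median r of the 10 pairs was 0.73, against 0.13 over all pairs of the 15757 transcripts that had 10 counts or more in each library, and 16.1% of all pairs had an r above 0.73. These transcripts were not matched for abundance to the members, which had 782 counts or more in each library. The r of the members also depended on the scaling. With TMM factors the median was 0.39, 28.2% of all pairs lay above it, and 1 of the 10 pairs passed by r, *Kcnj4* and *Kcnv1* (r = 0.71, rho = 0.75, n = 11; exact permutation p = 0.00304, adjusted p = 0.0304, rho exact p = 0.0058; r = 0.70 without the 2 farthest). By rho a second pair passed, *Kcna4* and *Kcnv1* (rho = 0.75, exact permutation p = 0.00699, adjusted p = 0.0349; r = 0.66, exact p = 0.0245, adjusted p = 0.096; r = 0.70 without the 2 farthest). With the upper-quartile factors of the filterByExpr transcripts the median was 0.31 and 0 of the 10 pairs passed the exact permutation test (r from -0.42 to 0.53, lowest unadjusted p = 0.0655 for *Kcnj4* and *Kcnv1*). *Kcnj2* and *Kcnj4*, the 2 inward rectifiers, had r = 0.16 with the first factors, -0.32 with TMM factors and -0.42 with the last.

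**Figure D3:**
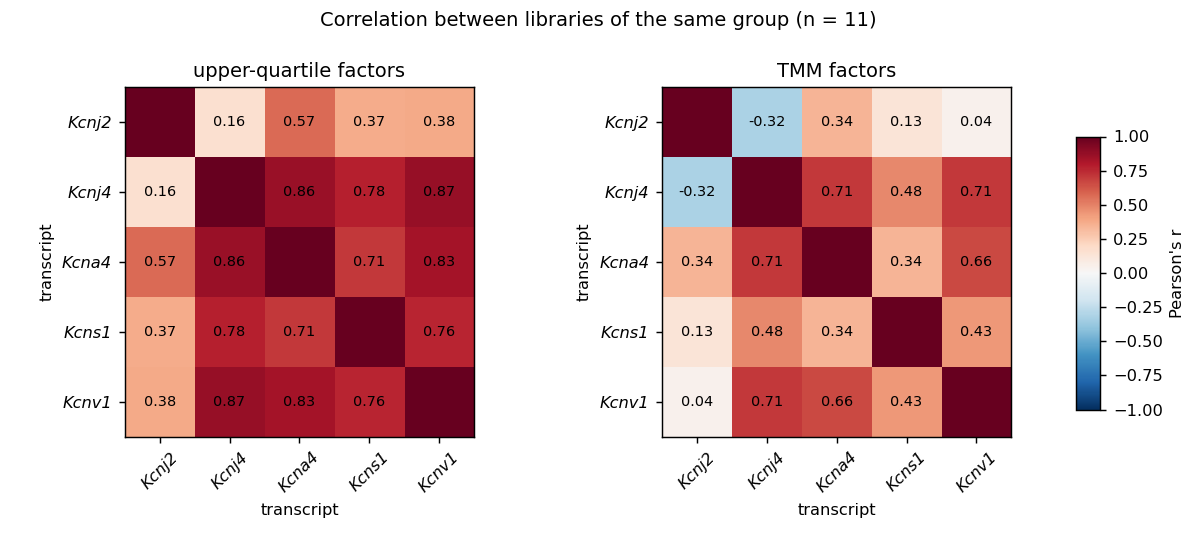
Pearson's r between the log2 CPM of each pair of channel transcripts across 11 libraries after removal of the group means, with upper-quartile factors (left) and TMM factors (right), on a colour scale from -1 to 1. *Kcnj4*, *Kcna4*, *Kcns1* and *Kcnv1* form a block of r from 0.71 to 0.87 on the left, which weakens to 0.34 to 0.71 on the right, and *Kcnj2* has r from 0.16 to 0.57 with them on the left and -0.32 to 0.34 on the right.

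The share of reads outside annotated transcripts differed between libraries, and with upper-quartile factors *Kcnj4*, *Kcna4* and *Kcnv1* were lower where it was larger, while *Kcns1* and *Kcnj2* did not pass the test over all 11 libraries. Within groups, *Kcnv1* had r = -0.81 and rho = -0.89 with this share (n = 11; exact permutation p = 0.00716, adjusted p = 0.0337 over 10 relations, rho exact p = 0.00137), and r = -0.81 without the 2 libraries farthest from the median share. *Kcna4* had r = -0.74 and rho = -0.81 (exact permutation p = 0.0101, adjusted p = 0.0337, rho exact p = 0.00413), and r = -0.79 without the 2 farthest. *Kcnj4* had r = -0.70 and rho = -0.83 (exact permutation p = 0.0098, adjusted p = 0.0337, rho exact p = 0.000671), and r = -0.93 without the 2 farthest. *Kcns1* had r = -0.38 and rho = -0.70 (exact permutation p = 0.358, adjusted p = 0.716, rho exact p = 0.0466, adjusted p = 0.116), and r = -0.80 without the 2 farthest, so that its r rests on which libraries are included. *Kcnj2* had r = -0.29 and rho = -0.34 (exact permutation p = 0.506, adjusted p = 0.843, rho exact p = 0.395), and r = -0.22 without the 2 farthest. Such a relation was common, since the median r with the share over the 15757 transcripts was -0.48 and 42.1% had an r below -0.6. The upper-quartile factor of a library rose with its share (r = 0.84, rho = 0.90, n = 11; exact permutation p = 0.000336, rho exact p = 0.000185; r = 0.97 without the 2 farthest), and so did its TMM factor (r = 0.80, rho = 0.86, n = 11; exact permutation p = 0.00126, rho exact p = 0.000255; r = 0.96 without the 2 farthest). With TMM factors 0 of the 5 relations passed by r after adjustment over the 5 (adjusted exact p from 0.112 to 0.924), and 2 passed by rho, *Kcnv1* and *Kcnj4*. Over the 15757 transcripts under TMM factors the median r with the share was -0.23 and the median rho -0.26, and 28.1% had an r and 30.8% a rho below -0.6. *Kcnv1* had r = -0.72 and rho = -0.85 (exact permutation p = 0.0467, rho exact p = 0.00388, adjusted p = 0.0194), and r = -0.73 without the 2 farthest. *Kcnj4* had r = -0.55 and rho = -0.69 (exact permutation p = 0.0669, rho exact p = 0.0195, adjusted p = 0.0488), and r = -0.87 without the 2 farthest. *Kcna4* had r = -0.63 and rho = -0.63 (exact permutation p = 0.0447, rho exact p = 0.0462), and r = -0.70 without the 2 farthest. *Kcns1* had r = 0.09 and rho = -0.30, and r = -0.65 without the 2 farthest, and *Kcnj2* had r = 0.05 and rho = -0.05, and r = 0.00 without them.

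At equal share, by least squares, the difference between SD and NSD in log2 CPM was -0.42 for *Kcnj2*, -0.30 for *Kcnj4*, -0.40 for *Kcna4*, -0.25 for *Kcns1* and -0.34 for *Kcnv1*. With the share as a covariate edgeR called 4 of the 5, all but *Kcns1* (FDR 0.159), beside 0.277% of all transcripts called lower. Without NSD replicate 2 and SD replicate 1, the libraries with the largest share, edgeR called 0 of the 5 (unadjusted p from 0.000299 to 0.0228), beside 0.0525% of 28581 transcripts called lower, and the log2 fold changes were -0.44, -0.23, -0.33, -0.20 and -0.31 for *Kcnj2*, *Kcnj4*, *Kcna4*, *Kcns1* and *Kcnv1*.

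**Figure D4:**
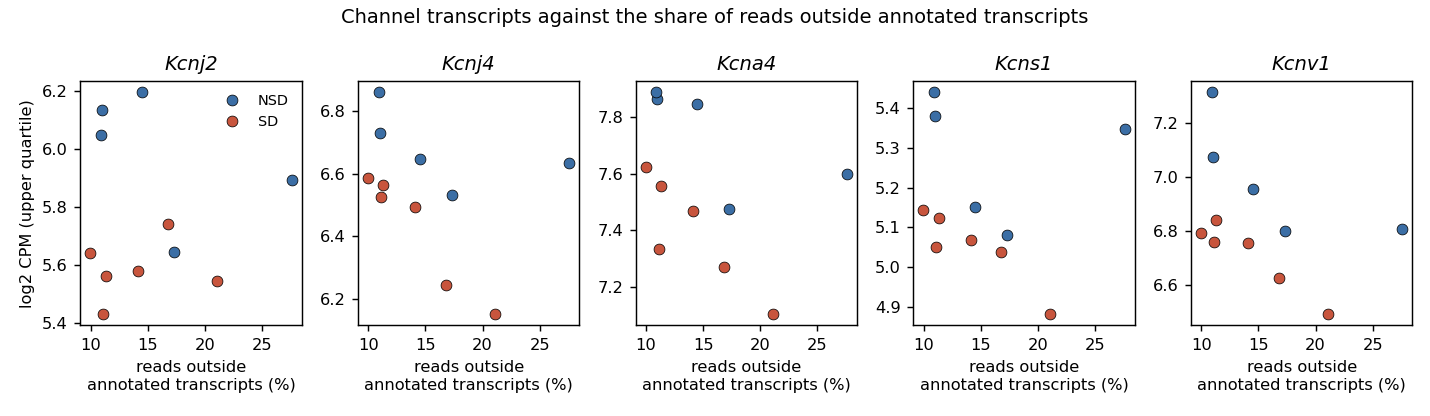
Log2 CPM (upper-quartile factors) of each channel transcript against the percentage of reads outside annotated transcripts; each point is 1 library (blue, 5 NSD; red, 6 SD). *Kcnj4*, *Kcna4* and *Kcnv1* tend to be lower in libraries with a larger share within each group, and their SD points lie below NSD points of similar share, whereas in *Kcnj2* NSD replicate 4 lies below an SD library of similar share.

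Markers of other cells were looked up in the same libraries, as far as they had a named transcript. Names came from listed transcripts with small p-values in this contrast or with several isoforms. The markers found were therefore partly selected for a difference between the groups, and a marker without a name was not measured here. The inhibitory neuron markers found (5 of 18 genes, among them *Gad2* and *Slc32a1*, which make and load GABA) summed to 65.4 to 183 CPM in NSD (median 107) and 53.4 to 111 CPM in SD (median 64.15), and none was at 0. The septal markers found (3 of 8, *Zic1*, *Zic2* and *Zic5*) summed to 5.17 to 29.5 CPM in NSD and 2.83 to 11.4 CPM in SD. The excitatory markers found (3 of 12, *Emx1*, *Neurod2* and a minor transcript of *Camk2a*) summed to 334 to 423 CPM in NSD and 307 to 480 CPM in SD, most of it *Neurod2*. *Neurod2* had 336 ± 37.7 CPM in NSD and 385 ± 63.1 CPM in SD (log2 fold change 0.20), *Emx1* had 29.1 ± 3.39 and 26.1 ± 2.71 CPM (-0.16), and the *Camk2a* transcript had 2.51 ± 0.167 and 1.89 ± 0.34 CPM (-0.41), with an FDR of 1 from edgeR for each. *Mbp*, the 1 of 11 oligodendrocyte markers found, had 167 to 195 CPM in NSD and 178 to 230 CPM in SD, and 0 of 9 astrocyte, 0 of 9 microglia and 0 of 7 endothelial or pericyte markers had a named transcript. NSD replicate 4, low in the channel transcripts, had 159 CPM of the inhibitory and 29.5 CPM of the septal markers. NSD replicate B had 183 CPM of the inhibitory and 22.8 CPM of the septal markers. It had the highest *Kcnj2* of all libraries, but its *Kcns1* of 35.5 CPM was close to the 33.8 CPM of NSD replicate 4, the lowest of NSD. The summed inhibitory and septal markers had r from -0.56 for *Kcns1* to 0.00 for *Kcnj4* with the members within groups (n = 11), and 0 of the 5 relations passed the exact permutation test after adjustment over 10 relations (lowest unadjusted p = 0.149). These r rest on few libraries, since without the 2 farthest from the median sum they were -0.28 for *Kcnj2*, 0.39 for *Kcnj4*, 0.16 for *Kcna4*, 0.06 for *Kcns1* and 0.42 for *Kcnv1*. Without NSD replicates 4 and B and SD replicate 2, which had the highest sums, the log2 fold changes were -0.41, -0.33, -0.37, -0.34 and -0.37 for *Kcnj2*, *Kcnj4*, *Kcna4*, *Kcns1* and *Kcnv1*. In these 8 libraries edgeR called 0 of the 5 (unadjusted p from 0.000576 to 0.00884), beside 0% of 28186 transcripts called lower and 0 called in either direction.

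Of 97 potassium channel genes listed, 9 had a named transcript, the 5 members and 4 more, and edgeR called 0 of these 4. *Kcnb2*, a Kv2 subunit of the kind that modulatory subunits join, had 148 ± 12.5 CPM in NSD and 136 ± 18.8 CPM in SD (log2 fold change -0.12, standard error 0.102). *Kcnh3*, of the EAG family, had 134 ± 17.6 CPM in NSD and 125 ± 14.8 CPM in SD (-0.10, standard error 0.104). *Kcnh4*, of the same family, had 5.49 ± 0.982 CPM in NSD and 3.84 ± 0.59 CPM in SD (-0.51, standard error 0.153, unadjusted p = 0.00333 and FDR 0.513 from edgeR). *Kcnip1*, which encodes a protein that binds Kv4 channels, was near the limit of counting at 0.638 ± 0.283 CPM in NSD and 0.385 ± 0.214 CPM in SD (-0.74, standard error 0.389). The names came from listed transcripts with small p-values in this contrast or with several isoforms, so these counts do not describe the family. The remaining listed genes were not analysed here.

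Among 1819 other named transcripts, those most like the members with upper-quartile factors were *Zc3h14*, *Tmem178b*, *Bcl11a*, *Kif21a* and *Snx4*. Their mean r with the 5 was 0.82, 0.81, 0.81, 0.81 and 0.81 over the 11 libraries within groups. The ranking was not repeated with other factors. The members' own median r was 0.39 with TMM factors and 0.31 with the upper-quartile factors of the filterByExpr transcripts. *Bcl11a* had r = 0.97 with *Kcna4* and 0.48 with *Kcnj2*, and *Tmem178b* had r = 0.95 with *Kcnj4* and 0.45 with *Kcnj2*. Their own r with the share of reads outside annotated transcripts ran from -0.65 to -0.79. Their levels between the groups lay closer together than those of the members, for example 262 ± 27.7 CPM in NSD and 239 ± 24 CPM in SD for *Tmem178b*, and *Kif21a* was higher in SD, at 19.1 ± 2.05 CPM in NSD and 21.3 ± 2.47 CPM in SD.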

How the data were processed

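Ribosome-associated RNA of 11 libraries (5 NSD, 6 SD, 2 mice pooled in each) was sequenced by the authors with a stranded total RNA kit. Per the submitters' processing notes and the study's methods, reads were trimmed with Trimmomatic 0.36, aligned to mm10 with STAR 2.7.5 and counted with HTSeq in intersection-nonempty mode, where reads over several transcripts went to an ambiguous tally. The annotation version and strand setting are not given in the sources used here. The authors deposited raw counts per UCSC transcript, not normalized, and 5 tallies of uncounted reads, which were left out of library sizes and tests.

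Transcripts were named from the part at hand of the study's supplementary lists: an edgeR fit of 19141 rows (tallies kept, filterByExpr, TMM, likelihood ratio test) had to give exactly 1 transcript with the printed mean log2 CPM to all its digits. Of 2126 entries 2096 did, naming 2029 transcripts of 1900 genes, and 96.1% of consecutive named transcripts lay on 1 chromosome. The fold changes and p-values of those lists were not used. The members and all lists were chosen with earlier results of these data known. Named genes are the members, other listed potassium channels and cell type markers that could be named, and the 5 named transcripts most correlated with the members.

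SD was compared with NSD by edgeR 4.0.16 (R 4.3.3), two-sided quasi-likelihood test, upper-quartile factors, transcripts counted in 5 or more libraries, Benjamini-Hochberg FDR of 0.05. Log2 CPM used a prior count of 2. Correlations were tested by permuting libraries within groups exactly. Alternatives were TMM, DESeq2 1.42.0, the likelihood ratio test, 3 other filters, limma 3.58.1 voom with quality weights, the label series (letter or number) as covariate, a replicate block, and each library left out. Added after seeing the data were the share outside annotated transcripts as covariate, 2 sets of libraries left out, adjustment over fewer transcripts and the factors of the filterByExpr transcripts. The scripts were tested on simulated data. Positions and lengths are from GENCODE vM21. Plots were made in Python 3.11.15 (matplotlib 3.10.9).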

Additional observations from a re-analysis of the deposited data

How the results depend on the processing

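The log2 fold changes of the 5 transcripts were negative under all 26 alternative settings of the fit, from -0.49 to -0.29 for *Kcnj2*, -0.33 to -0.18 for *Kcnj4*, -0.41 to -0.24 for *Kcna4*, -0.34 to -0.19 for *Kcns1* and -0.37 to -0.17 for *Kcnv1*. The count of members called at FDR 0.05 was 0 in edgeR's quasi-likelihood test, with TMM, the likelihood ratio test, voom, the label series, a filter of at least 1 count in 1 library, and every library left out (0 to 0). DESeq2 called 2 (*Kcnj2* -0.41, *Kcna4* -0.35). In the order *Kcnj2*, *Kcnj4*, *Kcna4*, *Kcns1*, *Kcnv1*, filterByExpr called 5 (-0.43, -0.29, -0.37, -0.27, -0.32) and at least 10 counts in every library called 5 (-0.43, -0.29, -0.37, -0.26, -0.32). Of the settings chosen after seeing the data, the share outside annotated transcripts as covariate called 4 (-0.43, -0.30 and -0.40 for the first 3 and -0.34 for *Kcnv1*), the upper-quartile factors of the filterByExpr transcripts with all transcripts tested called 4 (-0.43, -0.29 and -0.37 for the first 3 and -0.32 for *Kcnv1*), and 0 members were called without the libraries with the largest share (57 of all transcripts called) or without those with the highest marker sums (0 of all called). Only the factors differ between that last count of 4 and the 0 of the first fit; the cause of the other changes was not tested. Over all transcripts the calls were 15 at first, 62 with TMM, 135 with DESeq2, 65 with the likelihood ratio test, 191 with filterByExpr, 311 with at least 10 counts, 33 with at least 1 count in 1 library, 58 with voom, 8 with the label series, 167 with the share as covariate, 139 with the filterByExpr factors and 0 to 78 with a library left out. The median within-group r of 0.73 was 0.39 with TMM factors and 0.31 with the factors of the filterByExpr transcripts, 0.64 with the share removed, 0.73 with a prior count of 0.5, 0.80 without the libraries named by a letter, and 0.64 to 0.82 with each library left out. With the replicate block over the 6 libraries whose numbers both groups share, the log2 fold changes were -0.29, -0.18, -0.24, -0.19 and -0.17 and 0 members were called (6 of all transcripts), as without the block in the same 6 libraries (0 members, 3 of all). The members' unadjusted p from edgeR was 0.167 to 0.435 with the block and 0.0539 to 0.195 without it. With at least 1 count in 1 library it ran from 0.00409 to 0.0968, and without NSD replicate 5 it was 0.0501 for *Kcnj4*. Same-numbered libraries deviated in opposite ways (r of -0.545, -0.592 and -0.664, against a mean of 0.0661 for other numbers). Their shares outside annotated transcripts were also opposed, for example 27.6% in NSD replicate 2 and 11.1% in SD replicate 2. These r therefore cannot show whether libraries with the same number shared a day or cohort, which the labels do not say. The counting error at the mean count of *Kcns1*, the least counted member, was 3.32%, above the 2.34% by which its SD libraries varied with TMM factors.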
